A study of Homo sapiens with 6 samples.

Results

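The 33 genes described here make cholesterol and fatty acids or control that synthesis. The list was drawn up with earlier results of these data known. Its rows were then taken by symbol, among 41471 gene symbols in the knockdown experiment and 34157 in the inhibitor experiment. By role, 7 act in the mevalonate pathway, 11 turn squalene precursors into cholesterol, 5 control the sterol response (SREBF1, SREBF2, SCAP, INSIG1 and INSIG2), 3 move sterols between compartments or out of the cell, and 7 make or desaturate fatty acids. All 33 averaged 1 CPM (a count scaled to the size of its library) or more in each experiment, the filter that left 15295 and 15655 genes to compare. RNA was sequenced from MDA-MB-231, a human line derived from a triple-negative, mesenchymal-like breast cancer. In the knockdown experiment the cells stably carried, by lentivirus, a scramble short hairpin RNA (SC) or 1 of 2 hairpins against the kinase CDK16, CDK16-sh1 and CDK16-sh2. In the inhibitor experiment the cells received the vehicle DMSO, 1 μM or 5 μM of the CDK16 inhibitor rebastinib (Reb) for 48 h, and Reb also acts on other kinases. Each of the 6 conditions had 1 library, so no difference below has a replicate check, and both treated libraries of an experiment share 1 control.

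Cholesterol is built from acetyl-CoA through mevalonate, farnesyl pyrophosphate and squalene, and fatty acids from acetyl-CoA that ACLY draws from citrate. The SREBP proteins, encoded by SREBF1 and SREBF2, switch on most of these enzymes. When sterols are plentiful, INSIG proteins hold the escort protein SCAP, and with it SREBP, in the endoplasmic reticulum, while the sterol-activated LXR receptors switch on genes of sterol efflux such as ABCA1.

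The deposited counts summed to between 25838443 and 50303269 per library. Values called CPM below are counts scaled to library size with the TMM method of edgeR, and a log2 fold change is the difference of log2 CPM between a treated library and its control after adding a prior count of 2, so that 1 means 2-fold. Ranges in brackets are 95% Clopper-Pearson intervals of the counts of both libraries, which cover counting error only. CDK16 itself had 3223 counts with scramble, 1360 with CDK16-sh1 and 846 with CDK16-sh2, and was lower by log2 fold changes of −1.52 (−1.61 to −1.43) and −1.82 (−1.93 to −1.71). With Reb it stood at −0.14 at 1 μM and 0.27 at 5 μM. Mitochondrial transcripts took 16.2% of the counts with CDK16-sh2 and 16.4% with 5 μM Reb, against 7.19% to 11.3% in the other libraries, and scaling by library totals in place of TMM moved the median of all genes by −0.19 and −0.68 in these libraries. The markers VIM, CD44 and AXL summed to 1510 CPM at 1 μM Reb, the lowest, and 5880 CPM with CDK16-sh1, the highest. Of 5 genes expected to be low in this line, ESR1 had 0 to 12 counts, PGR 0 to 16 and CDH1 4 to 53, while ERBB2 (996 to 3396) and EPCAM (125 to 408) were counted in every library. Of the markers of leukocytes and endothelium, PTPRC had 0 to 35 counts, CD3E 0 to 8, VWF 0 to 19 and PECAM1 4 to 154, with the first 3 highest at 1 μM Reb. Their part in the results was not tested.

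In the control libraries the highest and lowest members differed 73.7-fold with scramble and 115-fold with DMSO in level per length (RPKM, reads scaled by gene length and library total, as the authors calculated it). ACLY was highest in both, with 51.5 RPKM with scramble and 44.8 with DMSO. SCD, which introduces the first double bond into saturated fatty acids, had 19.1 RPKM with scramble and 36.7 with DMSO, and FASN, the fatty acid synthase, 24.7 and 31.9. The lowest were TM7SF2, a sterol reductase, at 0.795 and 0.391 RPKM, and the cholesterol exporter ABCA1 at 0.699 and 0.935. Neighbours in this order cannot be separated, since each level comes from 1 library. The 2 experiments were also scaled separately.

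**Figure D1:**
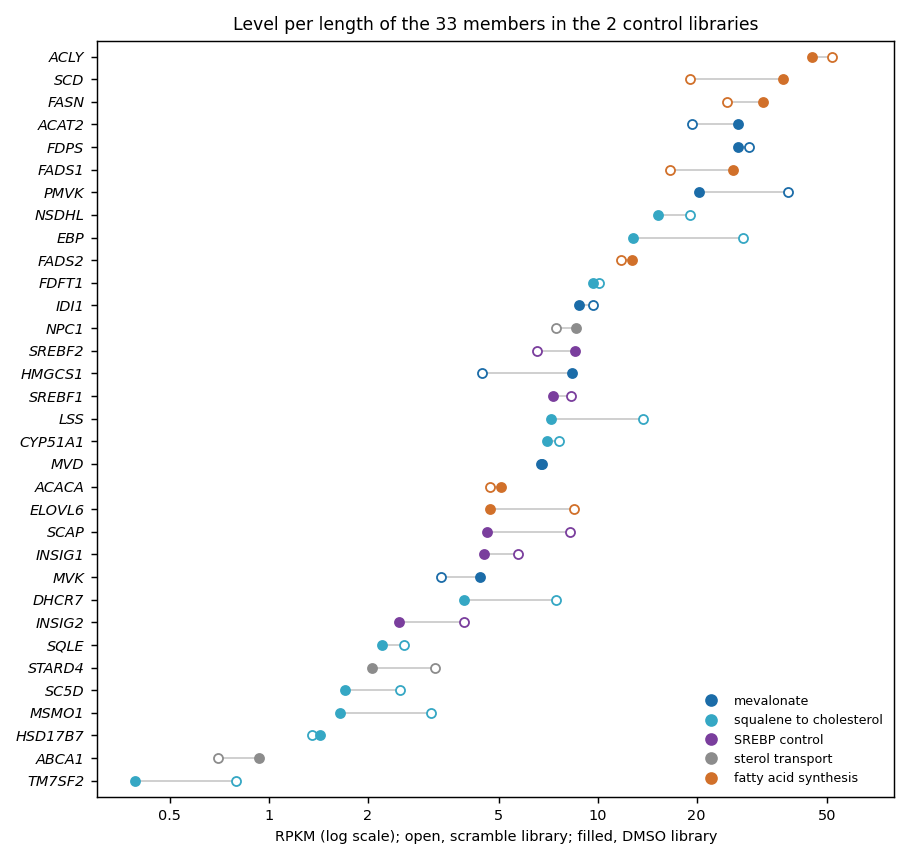
Level per length of each member (RPKM, log scale) in the scramble library (open circles) and the DMSO library (filled circles), coloured by role and ordered by the DMSO value. ACLY is highest in both at 51.5 and 44.8 RPKM, and TM7SF2 and ABCA1 lie below 1 RPKM in both.

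The comparison of the hairpins with scramble asks what loss of CDK16 does to these genes. With CDK16-sh2, all 18 sterol enzymes were above scramble, with a median log2 fold change of 0.52 against 0.02 for all genes tested, of which 51.4% were above. Scaled by library totals, 15 of the 18 were above, with a median of 0.32, and with trends of the fold changes on GC content and gene length removed 17 were. With CDK16-sh1, 7 of the same 18 were above, with a median of −0.18 against −0.00 for all genes, of which 49.9% were above. Set directly against each other, 14 of the 18 had the higher value with CDK16-sh2, and the median difference was 0.97. Of all genes tested, 49.9% had the higher value with CDK16-sh2, at a median of −0.00. This contrast was made with TMM scaling alone, and trends on GC content were not removed from it. RNA per cell and the number of cells making it cannot be told apart in bulk RNA.

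At least 2-fold higher with CDK16-sh2 were 4 of the 33 members, INSIG1, MSMO1, NSDHL and DHCR7, where 2.2% of all genes tested were. Among all genes past 2-fold in this library, 77.6% were lower with TMM and 91.8% with library totals. INSIG1 (chromosome 7, 155297776 to 155310235, GRCh38, as are all positions here) had 542 counts with scramble, 516 with CDK16-sh1 and 1726 with CDK16-sh2, or 19.9, 15.6 and 68.3 CPM. Only the CDK16-sh2 library was high, at a log2 fold change of 1.77 (1.64 to 1.92), against −0.35 (−0.52 to −0.17) with CDK16-sh1.

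MSMO1, a methylsterol oxidase that removes methyl groups at C4 of the sterol ring (chromosome 4, 165327623 to 165343160), had 233, 319 and 713 counts in the scramble, CDK16-sh1 and CDK16-sh2 libraries, or 8.56, 9.67 and 28.2 CPM. It differed by 1.71 (1.51 to 1.94) with CDK16-sh2 and by 0.18 (−0.07 to 0.43) with CDK16-sh1. NSDHL, the sterol dehydrogenase that works with it in C4 demethylation, had 983, 1365 and 1947 counts and log2 fold changes of 0.20 with CDK16-sh1 and 1.09 (0.98 to 1.20) with CDK16-sh2. DHCR7, which catalyses the last step to cholesterol, had 802, 961 and 1522 counts and log2 fold changes of −0.02 and 1.03 (0.91 to 1.16). For all 4 genes the scramble and CDK16-sh1 libraries lay close together and CDK16-sh2 above them. Scaled by library totals, INSIG1 (1.58) and MSMO1 (1.52) stayed past 2-fold, while NSDHL was at 0.89 and DHCR7 at 0.83.

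The bases before the start of the 3 genes highest with CDK16-sh2 and of SREBF2 are shown because they carry, in capitals, the CCAAT box bound by NF-Y (CCAAT, or ATTGG on the other strand) and, in SREBF2 alone of the members searched, the sterol regulatory element core TCACNCCAC. The sequences are from RefSeq on GRCh38.p14, plus strand, 5′ to 3′, and end where the deposited gene begins.
INSIG1, chr7:155297628-155297775: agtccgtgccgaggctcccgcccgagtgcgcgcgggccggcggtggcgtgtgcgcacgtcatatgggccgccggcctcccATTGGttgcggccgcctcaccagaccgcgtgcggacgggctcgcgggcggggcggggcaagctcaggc
MSMO1, chr4:165327419-165327622: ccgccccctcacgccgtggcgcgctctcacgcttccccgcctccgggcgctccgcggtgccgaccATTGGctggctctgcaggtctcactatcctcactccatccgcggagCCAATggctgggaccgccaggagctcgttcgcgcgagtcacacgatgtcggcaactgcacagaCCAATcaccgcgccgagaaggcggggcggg
NSDHL, chrX:152830813-152830966: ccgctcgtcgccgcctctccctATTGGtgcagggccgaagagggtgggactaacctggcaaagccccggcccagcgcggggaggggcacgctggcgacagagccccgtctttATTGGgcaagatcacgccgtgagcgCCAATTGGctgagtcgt
SREBF2, chr22:41832855-41833078: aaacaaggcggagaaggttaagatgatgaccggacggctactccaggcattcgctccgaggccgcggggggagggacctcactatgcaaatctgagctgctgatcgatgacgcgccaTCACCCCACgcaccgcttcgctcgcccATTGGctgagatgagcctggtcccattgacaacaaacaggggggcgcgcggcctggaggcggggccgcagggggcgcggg
The printed stretches hold 1 CCAAT match in INSIG1, 3 in MSMO1, 4 in NSDHL (the last pair overlap on opposite strands) and 1 in SREBF2. The window of 250 bases before the RefSeq start was listed for 29 of the 33 members and searched on both strands, taking the window with most matches where a gene has several starts. CCAAT was found for 19 of the 29, among them 13 of 15 sterol enzymes and 3 of 6 fatty acid genes, where 37% of 27305 genes had it. The SP1 box GGGCGG was found for 28 of 29 and in 46.2% of all genes, and TCACNCCAC for 1 of 29 and in 1.09%. Genes with several starts had more chances of a match, and a match is a description of the sequence, not of binding. Only exact matches within these windows were searched, so a missing match does not show that a gene lacks such an element.

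Of the remaining sterol enzymes, TM7SF2 alone was at least 2-fold from scramble with either hairpin. HMGCS1, which makes HMG-CoA, had 539, 397 and 797 counts with scramble, CDK16-sh1 and CDK16-sh2, at log2 fold changes of −0.71 (−0.91 to −0.53) and 0.67 (0.51 to 0.83). IDI1, the isopentenyl diphosphate isomerase, lay at −0.68 and 0.51, SQLE, the squalene epoxidase, at −0.72 and 0.34, FDFT1, the squalene synthase, at −0.54 and 0.77, and SC5D, a sterol desaturase, at −0.63 and 0.59. These 5 were below scramble with CDK16-sh1 and above it with CDK16-sh2. With the GC and length trends removed, the CDK16-sh1 values were nearer to 0, at −0.43 for HMGCS1, −0.45 for IDI1, −0.36 for SQLE, −0.46 for FDFT1 and −0.13 for SC5D.

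HSD17B7, a sterol ketoreductase, was at −0.25 (−0.60 to 0.09) with CDK16-sh1 and 0.98 with CDK16-sh2. CYP51A1, the lanosterol demethylase, was at −0.24 and 0.91, but 82.2% of its exon bases are shared with LRRD1 and an antisense gene, and the strand setting of the counting is not given in the sources used here. ACAT2, the cytosolic thiolase that opens the pathway, was at −0.41 and 0.21 and shares 52.3% of its exon bases with the antisense genes SOD2 and TCP1, so the counts of both genes may hold reads of their neighbours. MVK, the mevalonate kinase, was at −0.22 and 0.52.

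PMVK, MVD and FDPS, the kinase, decarboxylase and farnesyl synthase later in the mevalonate pathway, were above scramble with both hairpins, at 0.57, 0.51 and 0.13 with CDK16-sh1 and 0.12, 0.48 and 0.31 with CDK16-sh2, where PMVK went to −0.08 with library totals. So was EBP, the sterol isomerase, at 0.22 and 0.21. With the GC and length trends removed, the CDK16-sh1 values were 0.10 for PMVK, 0.09 for MVD, −0.04 for FDPS and −0.09 for EBP. LSS, which closes the sterol ring system, was at −0.14 and 0.02. TM7SF2 had 70, 182 and 67 counts, and was the 1 member at least 2-fold higher with CDK16-sh1, at 1.08 (0.70 to 1.52), where 4.33% of all genes were. With these trends removed it was at 0.60.

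Of the control genes other than INSIG1, SREBF2 had the largest difference. It had 1277 counts with scramble, 870 with CDK16-sh1 and 1276 with CDK16-sh2, or log2 fold changes of −0.83 (−0.96 to −0.70) and 0.11. SREBF1 had 1720, 2391 and 1790 counts (0.20 and 0.16), SCAP 1338, 1899 and 1447 (0.23 and 0.22) and INSIG2 400, 358 and 386 (−0.43 and 0.06). SREBF2 was thus low in the CDK16-sh1 library alone, while SREBF1 and SCAP lay within 0.23 of scramble with both hairpins.

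At least 2-fold lower were 2 members with CDK16-sh1, SCD and STARD4, where 6.86% of all genes were, and 2 others with CDK16-sh2, FADS1 and ABCA1, where 7.62% were. SCD (chromosome 10, 100347124 to 100364834) had 2644 counts with scramble, 990 with CDK16-sh1 and 1780 with CDK16-sh2, or 97.1, 30.0 and 70.4 CPM. It was low with both hairpins, at −1.69 (−1.80 to −1.59) and −0.46 (−0.55 to −0.38). STARD4, a cytosolic carrier of cholesterol (chromosome 5, 111496033 to 111512590), had 470, 213 and 292 counts, at −1.41 (−1.66 to −1.18) and −0.58 (−0.80 to −0.37). It was also below scramble with both.

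FADS1, a fatty acid desaturase (chromosome 11, 61799625 to 61829318), had 4378, 4022 and 1648 counts with scramble, CDK16-sh1 and CDK16-sh2, at −0.40 (−0.46 to −0.34) and −1.30 (−1.39 to −1.22). Its neighbour FADS2 had 3350, 3277 and 3224 counts, at −0.31 and 0.05. ABCA1 (chromosome 9, 104781002 to 104928237) had 205, 304 and 90 counts, at 0.29 (0.03 to 0.55) and −1.07 (−1.45 to −0.72). ABCA1 was thus on opposite sides of scramble with the hairpins, and FADS1 on the same side at unequal size.

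Among the other fatty acid genes, ACLY had 6945, 4235 and 6448 counts and was just under 2-fold lower with CDK16-sh1, at −0.99 (−1.05 to −0.93), with −0.00 with CDK16-sh2. ELOVL6, which lengthens palmitate, had 1596, 1090 and 1034 counts, at −0.83 and −0.52. FASN had 5975, 8584 and 8523 counts, at 0.25 (0.20 to 0.29) and 0.62 (0.57 to 0.67). ACACA, which makes malonyl-CoA for FASN, was at 0.17 with both hairpins. The lysosomal cholesterol exporter NPC1 had 1952, 2633 and 2727 counts, at 0.15 and 0.59. The genes that modify fatty acids, SCD, ELOVL6 and FADS1, were below scramble with both hairpins. FADS2 was below with CDK16-sh1 alone, but at −0.15 with CDK16-sh2 by library totals. FASN and ACACA, which build them, were above with both, while ACLY, which supplies the acetyl-CoA, was not. As exceptions, ACACA was at −0.02 with CDK16-sh2 by library totals. FASN was at −0.08 with CDK16-sh1 once the GC and length trends were removed.

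No member was at least 2-fold from scramble on the same side with both hairpins. Of the 15295 genes, 221 were lower and 67 higher with both. These shares are so small that 0 of 33 members is no departure from all genes. A test of both hairpins against scramble takes the difference between the hairpins as its spread. It can hardly call a member that changed with 1 hairpin alone. Taking the 2 hairpin libraries together against scramble, the quasi-likelihood test of edgeR called 0% of all genes and 0 members, at a Benjamini-Hochberg adjusted p of 0.05 and 2-fold. There were 382 genes with an unadjusted p under 0.05, none of them a member, and the smallest member p was 0.0515, for MSMO1 (adjusted p = 0.9997). DESeq2 also called 0 genes, with 233 under 0.05 unadjusted. The fold changes of CDK16-sh1 moved with the GC content of the genes (r = 0.43 across genes, which share both libraries and are not independent), those of CDK16-sh2 less (r = 0.103). With these trends removed, SCD was at −1.50 with CDK16-sh1, STARD4 at −0.98 and ACLY at −1.07, and 26 of the 33 members left their counting interval, 6 of them changing side.

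**Figure D2:**
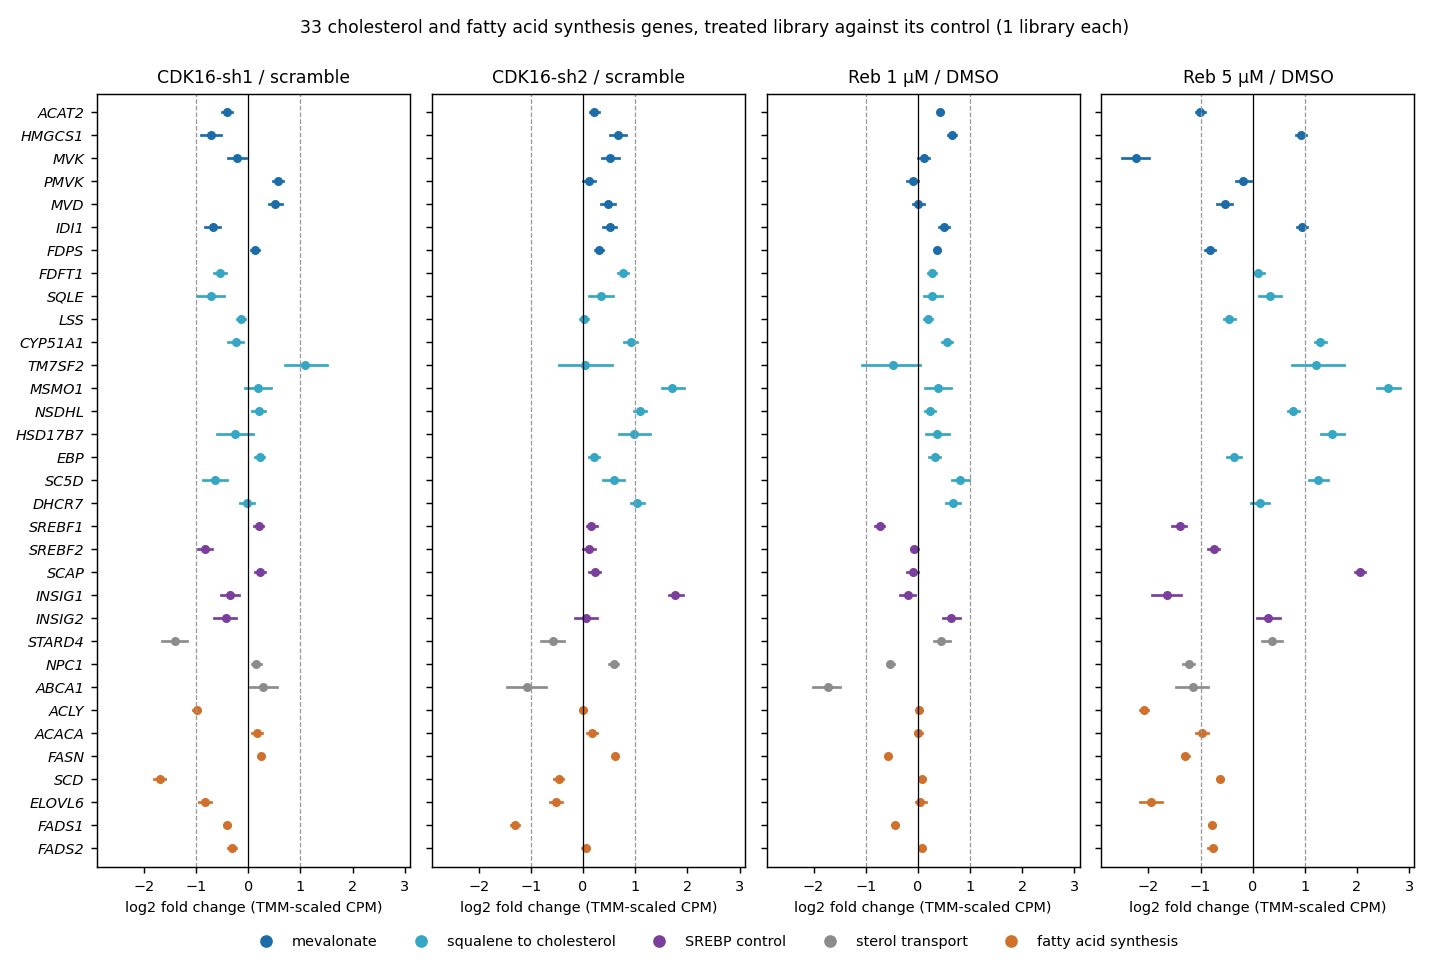
Log2 fold change of each member in the 4 treated libraries against their own control, from TMM-scaled CPM, with points coloured by role, bars for the 95% counting interval and dashed lines at 2-fold. INSIG1 (1.77) and MSMO1 (1.71) stand highest with CDK16-sh2, SCD (−1.69) lowest with CDK16-sh1, ABCA1 (−1.73) lowest at 1 μM Reb, and at 5 μM the members run from MVK at −2.23 to MSMO1 at 2.59.

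The comparison of Reb with DMSO asks what the inhibitor does to the same genes. At 1 μM, 16 of the 18 sterol enzymes were above DMSO by small amounts, with a median log2 fold change of 0.35 against 0.00 for all genes, of which 50.2% were above. The counting interval lay above 0 for 15 of them. That count was not made for all genes, and the interval covers counting error only. The highest were SC5D, at 0.81 (0.65 to 0.98), DHCR7 at 0.67 (0.54 to 0.80), HMGCS1 at 0.65 (0.57 to 0.74), CYP51A1 at 0.55 (0.46 to 0.65) and IDI1 at 0.50 (0.41 to 0.60). PMVK (−0.10) and TM7SF2 (−0.48, −1.07 to 0.05) were the 2 below. None of the 33 was at least 2-fold higher, where 1.28% of all genes were.

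Of the 33, ABCA1 alone was at least 2-fold lower at 1 μM, where 1.92% of all genes were. It had 534 counts with DMSO, 162 with 1 μM and 111 with 5 μM Reb, or 9.16, 2.73 and 4.10 CPM. Both doses were low, at −1.73 (−2.01 to −1.49) and −1.15 (−1.47 to −0.86), and ABCA1 was the 1 member at least 2-fold lower at each dose, none being 2-fold higher at each. Of all 15655 genes, 169 were so lower and 101 so higher.

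SREBF1, whose transcription LXR also activates, had 2952 counts with DMSO, 1806 with 1 μM and 517 with 5 μM, or 50.6, 30.5 and 19.1 CPM. It was lower at each dose, at −0.73 (−0.82 to −0.65) and −1.40 (−1.54 to −1.27). FASN followed the same order, with 15026, 10195 and 2845 counts, 258, 172 and 105 CPM, and log2 fold changes of −0.58 (−0.62 to −0.55) and −1.29 (−1.35 to −1.23). NPC1 had 4362, 3069 and 861 counts, at −0.53 (−0.60 to −0.46) and −1.23 (−1.34 to −1.13). All 3 genes were lower at 1 μM and lower again at 5 μM. With the GC and length trends removed, NPC1 was at −0.57 and −1.21, but SREBF1 was at −0.56 and −0.66 and FASN at −0.38 and −0.47, under 2-fold and with little step between the doses.

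The other fatty acid genes differed little at 1 μM. FADS1 was at −0.43, and ACLY, ACACA, SCD, ELOVL6 and FADS2 lay between 0.01 and 0.08. SREBF2 had 3251 counts with DMSO, 3145 with 1 μM and 895 with 5 μM, at −0.07 and −0.75 (−0.86 to −0.65). INSIG2 had 495, 785 and 283 counts, at 0.64 (0.48 to 0.81) and 0.30 (0.09 to 0.52), and STARD4 589, 821 and 353, at 0.45 and 0.37. These 2 were above DMSO at both doses with TMM scaling, but below it at 5 μM with library totals (−0.39 and −0.32) and with the GC and length trends removed (−0.19 and −0.04).

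At 5 μM, 9 members were at least 2-fold lower and 6 at least 2-fold higher, where 27.2% and 23.6% of all genes were, shares of the members near or under those of all genes. The lower ones were MVK, ACAT2, SREBF1, INSIG1, NPC1, ABCA1, ACLY, FASN and ELOVL6, and the higher ones MSMO1, SCAP, HSD17B7, CYP51A1, SC5D and TM7SF2. The split depended on the processing. Among all genes past 2-fold, 53.5% were lower with TMM and 78.7% with library totals. Among the members, 18 were lower and 2, MSMO1 and SCAP, higher with library totals. The lower and upper quartiles of all genes were then −1.78 and 0.25, so many of all genes were also at least 2-fold lower. The fold changes also moved with GC content, with r = −0.299 at 1 μM and −0.199 at 5 μM across genes. With the GC and length trends removed, 7 members were lower and 4 higher at 5 μM, without SREBF1 (−0.66), FASN (−0.47), CYP51A1 (0.83) and SC5D (0.75), and 23 of the 33 left their counting interval. Among all genes past 2-fold, 54.8% were then lower.

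MSMO1 had 239 counts with DMSO, 317 with 1 μM and 675 with 5 μM Reb, or 4.10, 5.35 and 24.9 CPM. It was the highest member at 5 μM, at 2.59 (2.39 to 2.83), and stayed at 1.91 with library totals. SCAP (chromosome 3, 47413694 to 47477126) had 1463, 1386 and 2827 counts, or 25.1, 23.4 and 104 CPM, at −0.10 (−0.21 to 0.01) and 2.06 (1.97 to 2.15). It was level at 1 μM and high at 5 μM alone, at 1.37 with library totals.

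HSD17B7 had 297, 391 and 397 counts, at 0.37 and 1.52 (1.31 to 1.75), and SC5D 478, 853 and 533, at 0.81 and 1.26 (1.08 to 1.45). CYP51A1, with its shared exons, had 1442, 2149 and 1640 counts, at 0.55 and 1.29, and TM7SF2 67, 48 and 74, at −0.48 and 1.22 (0.75 to 1.75). With library totals these 4 were between 0.55 and 0.83 at 5 μM, above DMSO but under 2-fold. HMGCS1, with 1973, 3157 and 1736 counts, and IDI1, with 1586, 2288 and 1419, were at 0.92 and 0.95 at 5 μM, and at 0.23 and 0.26 with library totals.

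MVK (chromosome 12, 109573255 to 109598117) had 1425 counts with DMSO, 1563 with 1 μM and 140 with 5 μM, or 24.4, 26.4 and 5.17 CPM. It was the lowest member at 5 μM, at −2.23 (−2.50 to −1.99), after 0.11 at 1 μM. ACLY had 11753, 12216 and 1290 counts, at 0.03 and −2.08 (−2.16 to −2.00), and ELOVL6 1727, 1820 and 207, at 0.05 and −1.95 (−2.17 to −1.74). INSIG1 had 826, 735 and 122 counts, or 14.2, 12.4 and 4.51 CPM, at −0.19 (−0.34 to −0.05) and −1.64 (−1.94 to −1.38). For MVK, ACLY and ELOVL6 the DMSO and 1 μM libraries lay close together and only the 5 μM library was low. ACAT2 had 5805, 7972 and 1341 counts, at 0.43 and −1.01 (−1.09 to −0.92).

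By role at 5 μM, the 7 fatty acid genes were all below DMSO, under each of the 7 other settings as well. Their median log2 fold change was −0.97 against −0.07 for all genes, of which 48.3% were above DMSO. ACACA (−0.97) was just under 2-fold, FADS1 was at −0.79, FADS2 at −0.77 and SCD at −0.63. Of the 11 genes from squalene to cholesterol, 9 were above DMSO, with a median of 0.77. With library totals 6 were above, where the median of all genes was −0.75 and their upper quartile 0.25. Of the 7 mevalonate genes 2 were above, with a median of −0.54. Of the latter, FDPS was at −0.82, MVD at −0.54 and PMVK at −0.18. NSDHL (0.77), SQLE (0.34), DHCR7 (0.14) and FDFT1 (0.11) were among those above, and LSS (−0.45) and EBP (−0.36) below. With library totals the median of all 18 sterol enzymes turned from 0.24 to −0.45, while that of all genes went from −0.07 to −0.75.

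**Figure D3:**
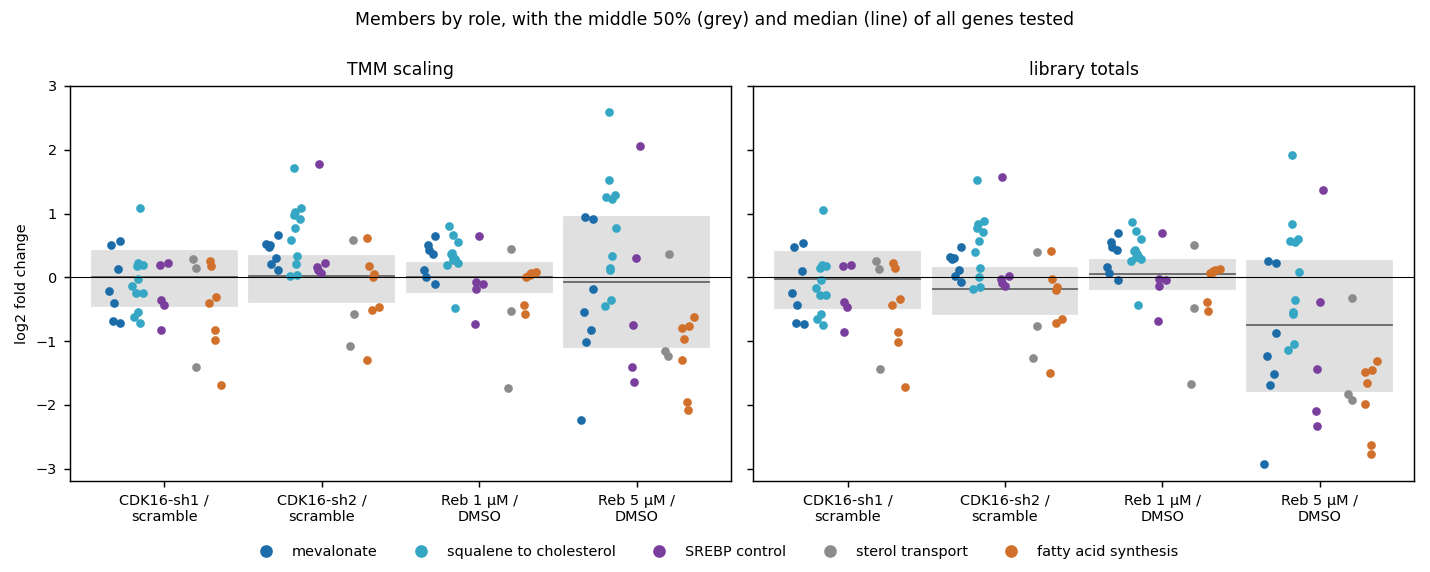
Log2 fold change of the members by role in the 4 comparisons, with TMM scaling on the left and library totals on the right, over the middle 50% (grey) and median (line) of all genes tested. At 5 μM Reb the all-gene median goes from −0.07 to −0.75 between the panels, and the 7 fatty acid genes lie below 0 in both.

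**Figure D4:**
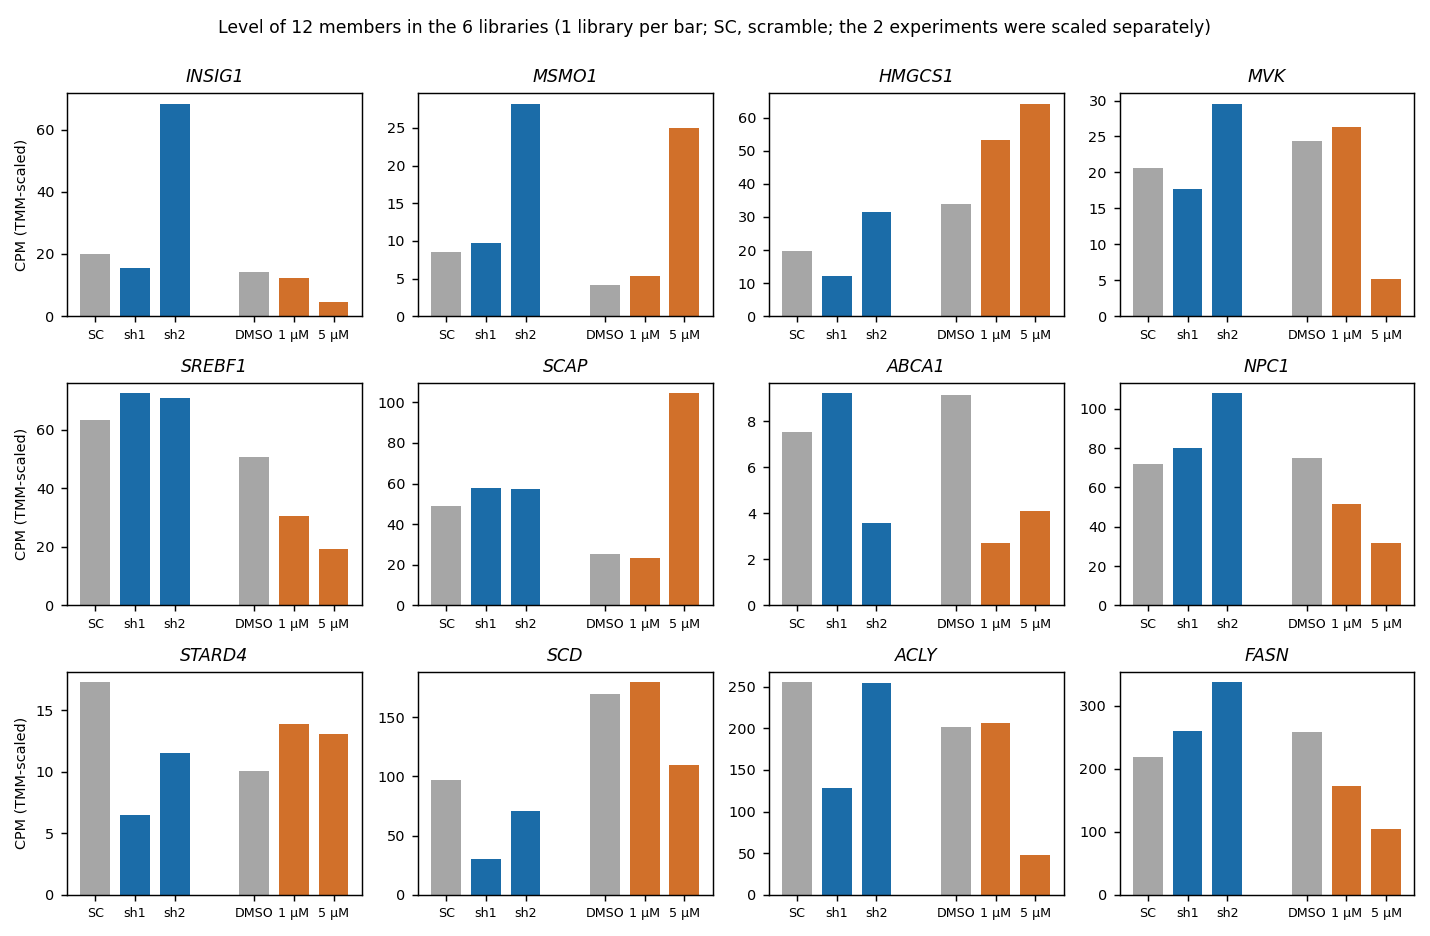
TMM-scaled CPM of 12 members in each of the 6 libraries, with 1 library per bar, controls in grey, hairpins in blue and Reb in orange. MSMO1 is high with CDK16-sh2 (28.2) and 5 μM Reb (24.9), INSIG1 with CDK16-sh2 alone (68.3), and ABCA1 is low with CDK16-sh2 and both Reb doses.

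INSIG1 and MSMO1 were both high with CDK16-sh2 and stood on opposite sides of DMSO at 5 μM Reb. A test of both doses against DMSO takes the difference between the doses as its spread. It can hardly call a member that changed at 5 μM alone, so an uncalled member is not shown to be unchanged. Taking the 2 doses together against DMSO, the same edgeR test called 12 of the 15655 genes, or 0.0767%, and 0 members. The test found 228 genes with an unadjusted p under 0.05, none a member, and the smallest member p was 0.148, for MSMO1 (adjusted p = 1). DESeq2 called 18 genes and 0 members. With dose as a linear term, entered as log2 of the dose plus 1, edgeR called 5 of the 33 members, beside 3832 of 15655 genes. The fitted change was downward for MVK, ACLY and ELOVL6 and upward for MSMO1 and SCAP. At 1 μM MVK (0.11), ACLY (0.03), ELOVL6 (0.05) and SCAP (−0.10) lay near DMSO, slightly on the other side. Their change was thus in the 5 μM library alone. The fit has 1 library per dose, so its spread is the misfit to that line and not a spread between replicates.

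Other genes of the pathway were listed by function. Their fold changes below are from TMM scaling, and library totals moved the median of all genes by −0.68 at 5 μM. Of 18 further SREBP-linked genes in the knockdown experiment, 2 were at least 2-fold lower with CDK16-sh1 (6.86% of all genes) and 2 higher with CDK16-sh2 (2.2% of all genes). Of 17 tested in the Reb experiment, 1 was higher at 1 μM (1.28% of all genes). At 5 μM, 2 of the 17 were lower and 5 higher, where 27.2% and 23.6% of all genes were. Of these, ACSL3, which activates long-chain fatty acids, had 2501, 2394 and 4738 counts with DMSO, 1 μM and 5 μM, at −0.09 and 2.03. LBR, a sterol reductase of the nuclear envelope, had 2519, 3489 and 3761 counts, at 0.45 and 1.69. Both were highest at 5 μM.

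Of 13 genes of SREBP processing and sterol sensing, 6 were at least 2-fold higher and 2 lower at 5 μM, beside 23.6% and 27.2% of all genes, and none was at 1 μM. Among the higher ones were RNF139 (3.58), a ubiquitin ligase of the endoplasmic reticulum, C12orf49 (3.11) and ERLIN1 (2.19). The 2 lower ones were MBTPS2 (−1.18) and ERLIN2 (−1.77), the latter also named after its values were seen. In the hairpin libraries 2 of the 13 were at least 2-fold lower with CDK16-sh1, ERLIN1 (−1.38, and −0.21 with CDK16-sh2) and MBTPS2, and MBTPS2 alone with CDK16-sh2, beside 6.86% and 7.62% of all genes. MBTPS2, a protease that releases SREBP and named here after its values were seen, had 229 counts with scramble, 104 with CDK16-sh1 and 78 with CDK16-sh2, at −1.40 and −1.43. It was at 0.03 at 1 μM and −1.18 at 5 μM Reb.

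Among 8 genes of LXR signalling and sterol efflux, 2 were at least 2-fold lower at 1 μM and none higher, beside 1.92% and 1.28% of all genes. MYLIP, an LXR-induced ubiquitin ligase, had 390, 124 and 881 counts with DMSO, 1 μM and 5 μM, at −1.66 and 2.28. ABCG1, a sterol exporter chosen here after its values were seen, had 195, 58 and 2 counts in the Reb experiment, at −1.73 at 1 μM, and at most 2 counts in each knockdown library. ABCG1, MYLIP and ABCA1 were all lower at 1 μM, while at 5 μM MYLIP was higher. LPCAT3, a phospholipid acyltransferase that LXR induces, was above DMSO at 1 μM, at 0.29, and below it at 5 μM, at −0.90, and PLTP, a phospholipid transfer protein, was at 0.19 and 0.80. The receptors NR1H3 and NR1H2 were at −0.34 and −0.61 at 1 μM and at −2.25 and −1.84 at 5 μM.

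In the lists farther from synthesis genes were spread to both sides, at shares to be read against the 27.2% lower and 23.6% higher of all genes at 5 μM. At that dose, 2 of 12 genes of sterol storage and traffic were at least 2-fold lower, GRAMD1A (−2.41) among them, and 2 higher. The higher ones were SOAT1 (1.40), which esterifies cholesterol, and NPC2 (1.20). By RPKM, DMSO and 5 μM stood at 5.95 and 9.73 for SOAT1 and at 19.9 and 28.4 for NPC2, under 2-fold. Of 12 genes of the isoprenoid branches 2 were lower and 4 higher, among them PGGT1B (3.53), a subunit of a prenyl transferase. Of 16 genes of fatty acid oxidation 5 were lower, among them CPT1A (−2.11), which admits fatty acids to mitochondria, and 3 higher. With CDK16-sh2, CPT1A was at −1.16 and NCEH1, a cholesteryl ester hydrolase, at −1.04, and with CDK16-sh1 PGGT1B was at −1.28.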

How the data were processed

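RNA-seq was analysed from 6 MDA-MB-231 libraries. The authors deposited whole-number counts of reads per gene symbol, without normalization, and RPKM calculated from them, which the counts, lengths and totals gave again to within 2.0e-10 of the highest value. The submitters' processing notes name Trimmomatic, featureCounts, Subread 1.5.1 and GRCh38. The aligner, the annotation release and the strand setting of the counting are not given in the sources used here. Libraries were stranded mRNA preparations.

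Groups were taken from the labels. Members and lists were chosen with earlier results of these data known. Counts were scaled with TMM (edgeR 4.0.16, R 4.3.3) on genes averaging 1 CPM or more, with a prior count of 2 and an adjusted p limit of 0.05. GC content came from GENCODE 29. Scripts were tested on simulated data. All 33 members are given. Counts per library are given for members at least 2-fold from control and for the SREBP control genes, and from each other list up to 4 genes that average 5 CPM or more in both experiments and differ most. Some genes of these lists are not reported here. Alternatives were DESeq2 1.42.0 size factors and test, library totals, no mitochondrial transcripts, the RPKM plus 0.1, a prior count of 0.5, no filter, GC and length trends removed, and dose as a linear term. Total counts limit the precision of single genes, as the intervals show. Nothing says that libraries came from separate cultures.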

Additional observations from a re-analysis of the deposited data

Results flagged for a closer look

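For 5 members both hairpin libraries lay on one side of scramble and both Reb libraries on the other side of DMSO. That count was not made for all genes, so the 5 are not shown to exceed the share among all genes. Of all genes tested, 49.9% were above scramble with CDK16-sh1 and 51.4% with CDK16-sh2. Above DMSO were 50.2% at 1 μM and 48.3% at 5 μM Reb, so such splits can also arise among other genes. The mean log2 fold change with Reb minus that with the hairpins was −0.48 for PMVK, −1.25 for SREBF1, 1.40 for STARD4, −1.25 for NPC1 and −1.37 for FASN. PMVK, SREBF1, NPC1 and FASN were above scramble and below DMSO, and STARD4 was below scramble and above DMSO. The interval of PMVK at 1 μM (−0.21 to 0.01) held 0. With library totals PMVK was at −0.08 and SREBF1 at −0.03 with CDK16-sh2, and STARD4 at −0.32 at 5 μM. With GC and length trends removed PMVK was at 0.07 at 1 μM, SREBF1 and FASN were at −0.08 with CDK16-sh1, and STARD4 was at −0.04 at 5 μM. Of the 5, NPC1 alone stood on opposite sides with both alternatives. The difference was not tested, since each condition has 1 library.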

How the results depend on the processing

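No member at least 2-fold from its control changed direction under any alternative, and up to 8 members nearer to 0 in 1 comparison did. With library totals and with RPKM plus 0.1, respectively, the members at least 2-fold higher with CDK16-sh2 numbered 2 and 2 in place of 4, with a median of 0.02 and 0.02 in place of 0.22. At 5 μM Reb, 18 and 18 were lower in place of 9, 2 and 2 higher in place of 6, and the median was −1.14 and −1.12 in place of −0.45. The median of all genes at 5 μM also went from −0.07 to −0.75 and −0.71, and it was −0.07 with GC and length trends removed. RPKM plus 0.1 also left 0 members higher with CDK16-sh1 in place of 1. With GC and length trends removed, 0 were higher with CDK16-sh1, 1 was lower with CDK16-sh2 in place of 2, and the median was 0.21 at 1 μM in place of 0.11 and −0.19 at 5 μM, where 7 were lower and 4 higher. Without a filter the median at 5 μM was −0.65. Dose as a linear term called 5 members in place of 0, beside 3832 of the 15655 genes in place of 12. The cause was not tested. Leaving out ACAT2 and CYP51A1, chosen after seeing the data, left the counts at 8 lower and 5 higher at 5 μM and unchanged in the other 3 comparisons. No paired analysis was possible because the groups have 1 library each, and no replicate could be left out. Depth limits TM7SF2, with 48 to 182 counts, most among the members.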
